A study of Mus musculus with 15 samples.

Results

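The comparison described here set severe stress with morphine (SSM) against severe stress with saline vehicle (SSS) in the right hippocampus of male C57BL/6 mice on postnatal day 9, the day of birth being day 1. The members were 6 of the 15 arrays of the study, 3 SSM and 3 SSS, taken by the treatment given for each sample, and all 19938 genes that carry a single symbol on the array. Pups of both groups went through the severe stress between days 5 and 9, so in their treatment label the groups differ in morphine or saline alone. The remaining 9 arrays came from mild stress with morphine (MSM), mild stress with saline vehicle (MSS) and untreated pups (CC), 3 each. Litters were reduced to no more than 7 pups per dam. Neither the litter of a pup nor the morphine dose nor the stress procedures are stated in the labels. A p-value here therefore covers only the scatter among the arrays, which may be partly technical.

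Total RNA was measured on Affymetrix whole-transcript arrays of the mouse, on which probes spread over the exons of a gene are summarised into a single value. Every level below is a log2 intensity after RMA, and every difference is a log2 difference, SSM minus SSS unless stated, with its standard error (SE) from limma fitted to all 15 arrays. A difference of that kind compares a gene with itself, and no level is set against that of another gene. The array is bulk tissue, in which fewer cells of a type and less RNA per cell cannot be told apart. The titles also hold a number after the letters SS, whose meaning is not stated. It was 8, 9 and 9 for SSM replicates 1 to 3 and 10, 10 and 8 for SSS replicates 1 to 3. Only SS 8 is shared, by SSM replicate 1 and SSS replicate 3. On the other SSM and SSS arrays the drug and the SS number cannot be told apart.

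Morphine acts on opioid receptors, which couple to inhibitory G proteins, lower cyclic AMP, open potassium channels and close calcium channels. In the hippocampus the mu receptor sits mainly on interneurons, and its activation reduces their release of GABA. The endogenous ligands are peptides cut from the precursors proenkephalin, prodynorphin and proopiomelanocortin. The stress hormone corticosterone acts through nuclear receptors whose targets include genes of the circadian clock, and opioids are known to shift clock rhythms in rodents.

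No gene passed the threshold in SSM against SSS. Of 19938 genes, 0 had an adjusted p under 0.05 in limma (Benjamini-Hochberg, smallest adjusted p = 0.494). Before adjustment 1868 genes, 9.37%, had a p under 0.05. Most of these had the higher mean in SSM: 1736 (8.71%) were higher and 132 (0.662%) lower. All 3 SSM arrays lay above all 3 SSS arrays for 2340 genes (11.7%) and below them for 229 (1.15%). The median SE of a difference was 0.081, and the 6 arrays correlated across genes at 0.991 to 0.998 over the 15 pairs, and no pair was identical. The male gene Eif2s3y was at 7.43 to 7.92 and Xist at 4.04 to 4.44 on the 6 arrays.

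The split depended on scaling, and its size on 1 array. Over all genes the median difference was 0.056, and 14750 genes (74.0%) had the higher mean in SSM. SSM replicate 3 lay above the mean of all 15 arrays by a median of 0.15 and was the highest of them for 9744 genes. Without it the median difference was 0.00098, with 861 genes higher and 570 lower at an unadjusted p under 0.05. After quantile normalization the split was 651 higher (3.27%) to 810 lower (4.06%), and after centring each array on its median 521 (2.61%) to 773 (3.88%). Differences below are therefore to be read against a shift of 0.056, and the value after quantile normalization stands beside those that depend on it. With SSM replicate 1 left out and quantile normalization the shares were 2.77% higher and 2.95% lower, and with SSS replicate 2 left out too they were 1.92% and 2.11%. Under all 3 scalings SSM lay wholly above SSS for 799 genes (4.01%) and wholly below for 185 (0.928%).

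**Figure D1:**
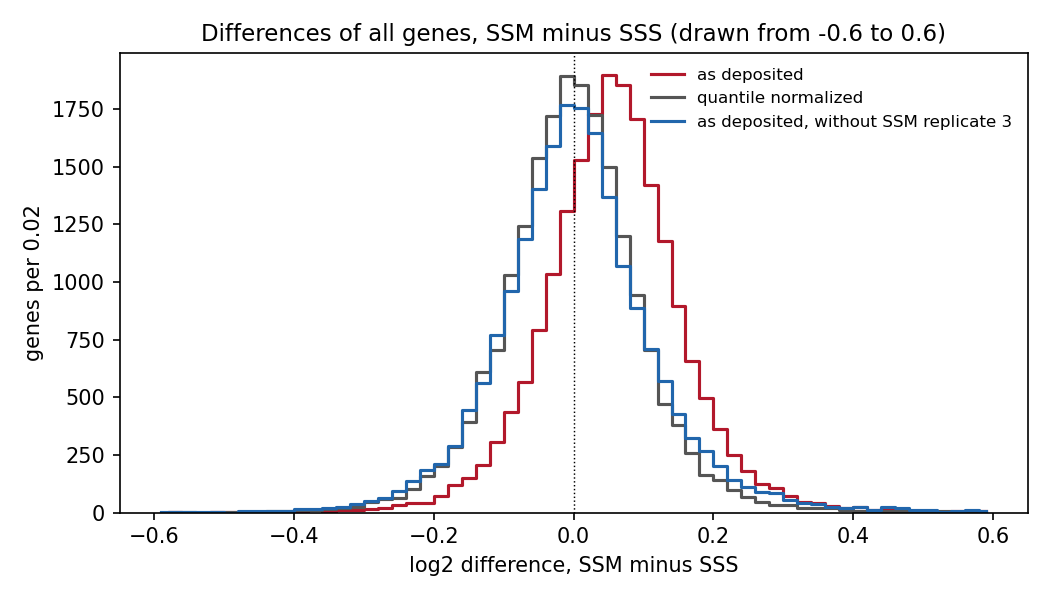
Differences of the genes, SSM minus SSS, on the log2 scale (horizontal axis, drawn from -0.6 to 0.6), counted in steps of 0.02 (vertical axis). The red line, with the values as deposited, is centred near 0.056, and the lines after quantile normalization (grey) and without SSM replicate 3 (blue) are centred near 0.

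Marker genes set SSM replicate 1 and SSS replicate 2 apart from the other arrays of their groups. The mean level of 14 striatal genes was 8.59 on SSM replicate 1, 6.44 and 6.62 on the other SSM arrays, against 6.37 to 6.42 in SSS, and 13 of the 14 were highest of all 15 arrays there. Drd1, the dopamine receptor gene of direct-pathway striatal neurons, was 9.72, 6.54 and 6.79 in SSM, against 6.79, 6.71 and 6.55 in SSS. The 15 myelin genes averaged 7.23 on SSM replicate 1, 6.14 and 6.23 on the other SSM arrays, against 6.05 to 6.11 in SSS. On the same array the 14 genes of hippocampal pyramidal and granule cells averaged 7.58, below the 7.999 and 8.12 of SSM replicates 2 and 3 and the 7.996 to 8.05 of SSS. SSS replicate 2 was low in choroid plexus genes, at 5.64 over 14 genes, against 7.00 and 7.58 on the other SSS arrays. Ttr, the transthyretin gene that this tissue expresses strongly, was 13.24, 12.71 and 13.07 in SSM, against 12.90, 8.87 and 13.22 in SSS. Among the mild-stress arrays, MSM replicate 3 was low in pyramidal and granule genes, at 7.24, against 8.04 and 7.93 on MSM replicates 1 and 2. It was high in thalamus genes, at 8.10, against 7.03 and 6.88 on those arrays. With SSM replicate 1 left out and the arrays quantile normalized, the median difference of the striatal list was 0.02 in place of 0.83, and that of the myelin list 0.015 in place of 0.41. Results below that rest mainly on such genes are given with and without that array. A value given once may still depend on it.

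**Figure D2:**
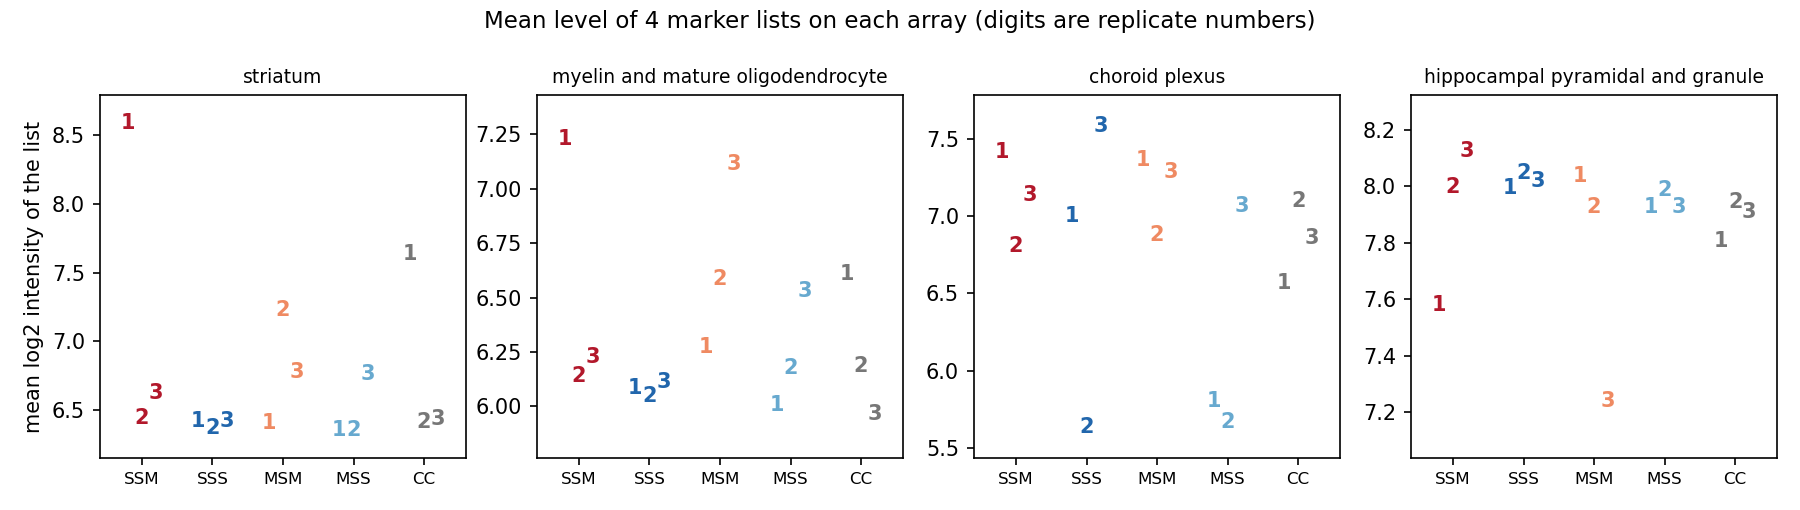
Mean log2 intensity (vertical axis) of 4 marker lists on each of the 15 arrays, grouped as SSM, SSS, MSM, MSS and CC (horizontal axis), with the replicate number as the symbol. SSM replicate 1 is highest in the striatal list, SSS replicate 2 is low in the choroid plexus list together with MSS replicates 1 and 2.

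The smallest p-value belonged to Dbp, a transcription factor of the PAR bZIP family whose RNA is driven by the circadian clock and cycles with large amplitude in most tissues. Dbp was 8.78, 8.46 and 8.41 in SSM, against 8.08, 8.01 and 8.08 in SSS. All 3 SSM arrays lay above all 3 SSS arrays, and SSM replicate 1 was the highest. The difference was 0.49 (SE 0.091), with an unadjusted p of 8.12e-05 and an adjusted p of 0.494 in limma, so it did not pass. Under mild stress Dbp was 8.19, 8.12 and 7.94 in MSM, against 7.74, 7.80 and 7.87 in MSS, a difference of 0.28 with groups that again did not overlap, and untreated pups had 8.07 ± 0.088 (SD, n = 3). The interaction, which asks whether the difference depends on the stress level, was 0.21 (SE 0.13, limma adjusted p = 0.959). Dbp was higher in SSM by 0.42 after quantile normalization and by 0.29 with SSM replicate 1 left out as well.

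The other 3 members of the family differed less. Tef was 8.80, 8.59 and 8.63 in SSM, against 8.53, 8.58 and 8.53 in SSS, without overlap, a difference of 0.12 (SE 0.087). Hlf was 7.26, 6.99 and 7.12 in SSM, against 7.09, 6.90 and 6.75 in SSS, a difference of 0.21 (SE 0.10) with overlapping groups. Nfil3, the repressor that competes with the family for the same sites, was 6.42, 6.87 and 7.10 in SSM, against 6.74, 6.69 and 6.95 in SSS, a difference of 0.0066 (SE 0.14). After quantile normalization without SSM replicate 1, Tef, Hlf and Nfil3 stood at -0.014, 0.062 and 0.11, against 0.29 for Dbp. Under mild stress 2 of the 4 had the higher mean in MSM.

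The core clock works as a loop in which the activators Clock and Arntl turn on the Per, Cry and Nr1d genes, whose products shut the activators down. Of 16 core clock genes 12 had the higher mean in SSM, with a median of 0.085 beside 0.056 over all genes, and 3 had an unadjusted p under 0.05. Over all genes 74.0% had the higher mean and 8.71% were higher at such a p. The activator Arntl was 7.59, 7.57 and 7.66 in SSM, against 7.35, 7.51 and 7.49 in SSS, a difference of 0.16 (SE 0.056). Bhlhe41, a repressor that binds the sites of Clock and Arntl, was 6.52, 6.44 and 6.50 in SSM, against 6.28, 6.34 and 6.26 in SSS, a difference of 0.19 (SE 0.088). In both genes every SSM array lay above every SSS array. Nr1d2, a nuclear receptor that represses Arntl, was 8.46, 8.11 and 8.33 in SSM, against 8.11, 8.06 and 7.99 in SSS, a difference of 0.25 (SE 0.084), and its groups overlapped narrowly.

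The other members of the loop differed less or varied more. Cry1 stood at 0.24 (SE 0.14), Nr1d1 at 0.12 (SE 0.079), Per3 at 0.11 (SE 0.08), Cry2 at 0.064 (SE 0.054) and Ciart at 0.15 (SE 0.13). Per1, Per2 and Clock stood at 0.0051, -0.0055 and -0.0051, each smaller than its SE. The kinase genes Csnk1d and Csnk1e stood at 0.033 and -0.032, the receptor genes Rora and Rorb at 0.19 and 0.017, and the repressor gene Bhlhe40 at -0.13. With quantile normalization and without SSM replicate 1 the median over the 16 genes was -0.037. Arntl and Bhlhe41 then stood at 0.078 and 0.091. The hour at which tissue was taken, with which clock genes cycle, is not stated in the labels. No clock gene passed in limma, the smallest adjusted p among them being 0.494. Under mild stress 12 of the 16 core clock genes had the higher mean in MSM, with a median of 0.058, and Cry1 stood at 0.41.

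Promoters of the 3 clock genes whose arrays separated most clearly are shown because the loop runs through short sites in them. The sequences are RefSeq windows of 250 bases before to 50 after a gene start on GRCm38.p6, written 5′ to 3′ on the gene's strand. They were searched on both strands for the E-box CACGTG (bound by Clock and Arntl), the receptor site AGGTCA with its reverse complement TGACCT (bound by the Nr1d and Ror receptors), and the D-box TTATGTAA with TTACATAA (bound by Dbp and its relatives). No window held more than 1 match, so none overlap, and capitals mark a match. Dbp lies on chromosome 7 (chr7:45704997-45705296, plus strand), Arntl on chromosome 7 (chr7:113207261-113207560, plus strand) and Bhlhe41 on chromosome 6 (chr6:145865371-145865670, minus strand).
Dbp: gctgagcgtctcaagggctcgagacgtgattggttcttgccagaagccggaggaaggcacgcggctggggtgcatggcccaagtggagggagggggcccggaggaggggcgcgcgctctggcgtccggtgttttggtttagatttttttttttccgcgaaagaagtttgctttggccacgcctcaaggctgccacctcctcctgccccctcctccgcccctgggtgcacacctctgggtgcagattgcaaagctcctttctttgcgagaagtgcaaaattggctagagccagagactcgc
Arntl: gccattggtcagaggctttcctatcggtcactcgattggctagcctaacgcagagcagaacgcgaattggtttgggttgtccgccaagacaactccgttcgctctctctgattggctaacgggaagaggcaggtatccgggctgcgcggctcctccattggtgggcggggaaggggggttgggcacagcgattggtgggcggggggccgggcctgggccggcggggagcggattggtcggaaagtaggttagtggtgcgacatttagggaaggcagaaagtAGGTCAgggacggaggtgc
Bhlhe41: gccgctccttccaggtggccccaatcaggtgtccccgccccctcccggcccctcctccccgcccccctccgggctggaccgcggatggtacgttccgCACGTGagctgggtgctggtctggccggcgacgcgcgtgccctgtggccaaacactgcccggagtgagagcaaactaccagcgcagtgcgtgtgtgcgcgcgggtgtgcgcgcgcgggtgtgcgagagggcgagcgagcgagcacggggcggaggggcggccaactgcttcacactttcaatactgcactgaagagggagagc
The Dbp window held none of the 3 motifs, the Arntl window a receptor site and the Bhlhe41 window an E-box. A second, overlapping Arntl window held none. Among 32851 promoter windows of the same length, 7.15% hold the E-box, 16.3% the receptor site and 0.938% the D-box, so these matches are a description of the windows only.

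The other genes with the smallest p-values and a higher mean in SSM had varied roles. Commd6, a subunit of the complex that recycles membrane proteins from endosomes, was 7.80, 7.78 and 7.90 in SSM, against 7.53, 7.50 and 7.44 in SSS. Avpi1, first found as a gene induced by vasopressin, was 6.34, 6.23 and 6.46 in SSM, against 5.96, 5.94 and 6.05 in SSS. Pdhb, the beta subunit of the mitochondrial enzyme pyruvate dehydrogenase, was 9.51, 9.39 and 9.57 in SSM, against 9.16, 9.08 and 9.15 in SSS. In each of the 3 the lowest SSM array lay above the highest SSS array by more than the spread within SSS, and the differences were 0.34 (SE 0.063), 0.36 (SE 0.069) and 0.36 (SE 0.076). SSM replicate 1 was not the highest array in any of them, and they stood at 0.26, 0.29 and 0.27 with it left out and quantile normalization.

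Gsdme, a gasdermin that forms membrane pores once caspases cut it, was 7.57, 7.44 and 7.52 in SSM, against 7.29, 7.03 and 7.17 in SSS. Uxt, a prefoldin-like chaperone, was 7.58, 7.38 and 7.55 in SSM, against 7.22, 7.16 and 7.15 in SSS. Ascc1, of a complex that acts in transcription and alkylation repair, was 7.39, 7.19 and 7.46 in SSM, against 6.97, 6.95 and 7.07 in SSS. The groups were apart in all 3, by differences of 0.34 (SE 0.071), 0.33 (SE 0.07) and 0.35 (SE 0.074). Cpn1 (carboxypeptidase N), Sap30bp, Pfn4 (a profilin), Zcchc10 and Srfbp1 completed the 12 genes with the smallest p-values, at 0.37, 0.30, 0.34, 0.31 and 0.35. All 12 had groups that did not overlap, a limma adjusted p of 0.494 and a value after quantile normalization between 0.23 and 0.42.

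Ranked by the distance between the groups under all 3 scalings, 8 genes with a mean level of at least 6 led, among them Dbp, Commd6, Pdhb and Avpi1. Tac1, the precursor of substance P and neurokinin A, was 8.91, 6.64 and 6.69 in SSM, against 6.11, 5.96 and 6.06 in SSS. SSM replicate 1, the array with the striatal genes, was far above the rest. That the other SSM arrays also lay above every SSS array follows from the ranking. Without SSM replicate 1 Tac1 stood at 0.54 after quantile normalization (unadjusted p = 0.16 in limma). In untreated pups it was 7.79, 6.28 and 6.41. The difference with all arrays was 1.37 (SE 0.50). Rpp38, a subunit of ribonuclease P, was 8.02, 7.90 and 8.17 in SSM, against 7.70, 7.57 and 7.73 in SSS, a difference of 0.37 (SE 0.089). Larp6, an RNA-binding protein of collagen messengers, was 7.29, 7.38 and 7.52 in SSM, against 7.06, 7.05 and 7.08 in SSS, a difference of 0.33 (SE 0.079). Mrps27, of the small mitochondrial ribosomal subunit, was 7.36, 7.31 and 7.50 in SSM, against 7.12, 7.04 and 7.12 in SSS, a difference of 0.30 (SE 0.07). These 3 were separated on every array, as the ranking requires, and highest on SSM replicate 3.

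The genes with the smallest p-values and a lower mean in SSM had varied roles too. Pclo, the scaffold protein Piccolo of the presynaptic active zone, was 8.11, 8.36 and 8.27 in SSM, against 8.85, 8.60 and 8.51 in SSS. Nav1, a microtubule-binding guidance protein, was 9.10, 9.43 and 9.25 in SSM, against 9.73, 9.63 and 9.56 in SSS. Dync1h1, the heavy chain of the motor that carries cargo toward the cell body, was 9.76, 10.04 and 9.76 in SSM, against 10.30, 10.22 and 10.14 in SSS. SSM lay below SSS on every array in these 3, by -0.41 (SE 0.11), -0.38 (SE 0.11) and -0.37 (SE 0.11), and SSM replicate 2 was the SSM array nearest to SSS. Reln, the secreted protein of Cajal-Retzius cells and interneurons that guides neuronal layering, was 8.70, 9.26 and 9.02 in SSM, against 9.58, 9.50 and 9.37 in SSS, a difference of -0.49 (SE 0.15). Its lowest array was SSM replicate 1, and without that array it stood at -0.41 after quantile normalization.

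Myo5a, the myosin that carries vesicles and organelles along actin, was 9.38, 9.69 and 9.52 in SSM, against 9.94, 9.76 and 9.70 in SSS. Shank1, a scaffold of the postsynaptic density, was 9.02, 9.53 and 9.43 in SSM, against 9.69, 9.71 and 9.58 in SSS. Without SSM replicate 1, its lowest array, the Shank1 difference was -0.18 as deposited. L1cam, an adhesion molecule of growing axons, was between 9.94 and 10.15 in SSM, against 10.17 to 10.29 in SSS. The groups were separate in all 3, in Myo5a by only 0.0023 between the nearest arrays, and the differences were -0.26 (SE 0.078), -0.33 (SE 0.10) and -0.20 (SE 0.062). Cep250 and Sfi1 (both of the centrosome), Myo9a and Fry stood at -0.24, -0.30, -0.20 and -0.31. Gh, growth hormone, had the largest difference of the 12, -0.85 (SE 0.26), but its groups overlapped, with 4.55, 4.62 and 5.02 in SSM, against 5.59, 6.37 and 4.81 in SSS. All 12 had a limma adjusted p of 0.494, and after quantile normalization they stood between -0.92 and -0.24. Ranked by distance between the groups, the leading genes also held Myo19, a mitochondrial myosin, at -0.24 (SE 0.082), the proliferation marker Mki67 at -0.15 (SE 0.11), the acetyltransferase Ep300 at -0.14 (SE 0.084) and the keratin-associated Krtap5-3 at -0.31 (SE 0.10). Mki67 and Ep300 had limma adjusted p-values of 0.673 and 0.60. Mki67 was not typical of its list, since 17 of 19 cell cycle genes had the higher mean in SSM and 2 the lower, beside 74.0% of all genes higher. Its MSS arrays (5.96 to 6.39) and CC arrays (5.95 to 6.47) spanned both groups.

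**Figure D3:**
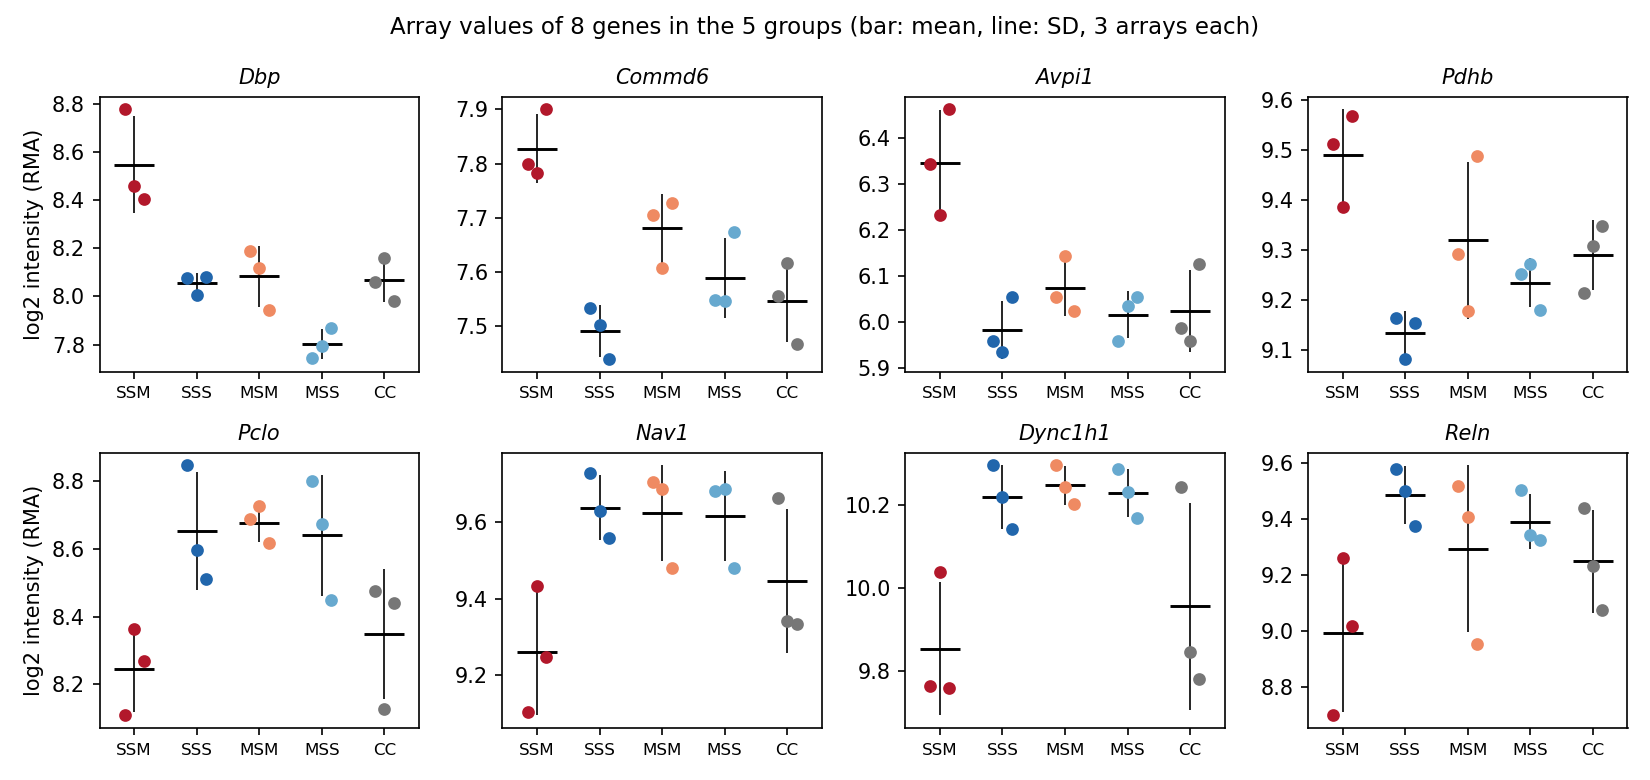
Log2 intensity (vertical axes, each with its own range, not starting at 0) of 8 genes in SSM, SSS, MSM, MSS and CC (horizontal axis), with points for the arrays, a bar for the mean and a line for the SD. In Dbp, Commd6, Avpi1 and Pdhb the 3 SSM arrays lie above the 3 SSS arrays, and in Pclo, Nav1, Dync1h1 and Reln below them.

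Where untreated pups lay depended on how the genes were chosen. For the 12 genes with the higher mean and the smallest p-values, the CC mean was nearer to SSS in 12, and for the 12 with the lower mean in 3. Of the 8 genes in each direction ranked by distance between the groups, it was nearer to SSS in 7 of the higher and 5 of the lower. All were chosen by their SSM and SSS arrays, and the share over all genes was not computed. Dync1h1 averaged 9.85 ± 0.16 in SSM and 10.22 ± 0.077 in SSS, with 9.96 ± 0.25 in CC. Pclo averaged 8.25 ± 0.13 in SSM and 8.65 ± 0.17 in SSS, with 8.35 ± 0.19 in CC (SD, n = 3 each). The CC arrays of both genes overlapped those of SSM, and the highest CC array of Dync1h1 lay within SSS.

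The length of DNA that the genes span is given next as a description. The genomic span of a gene, from RefSeq annotation of GRCm38.p6, had a median of 46.5 kb over the 132 genes with a lower mean and an unadjusted p under 0.05, against 17.7 kb over all genes with a span, and 19.5 kb over the 1736 with a higher mean. After quantile normalization those medians were 27.9 kb over the 807 lower genes and 18.2 kb over the 650 higher ones that have a span. Pclo spans 349 kb, Reln 460 kb, Fry 379 kb and Nav1 254 kb, while Dbp spans 5.10 kb, Avpi1 5.72 kb and Commd6 6.71 kb. Protein-coding genes with a mean level of at least 6 were then divided into 8 bins of 1295 or 1296 genes by span, a division added after the data were seen. The median difference was 0.079 in the bin with the shortest genes, 0.065 in the fifth bin and 0.02 in that with the longest, beyond 126 kb. SSM replicate 3 alone had a median deviation from the mean of the 15 arrays of 0.17 in the shortest bin and 0.059 in the longest. Without it the bins ran between 0.038 in the fourth bin and 0.0053 in the longest. With SSM replicate 1 left out and quantile normalization, the shortest bin stood at 0.03 and the longest at -0.033. Under mild stress the medians were 0.013 and 0.00062, and no test was made on these bins.

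Opioid genes were examined member by member. Oprm1, the mu receptor through which morphine acts, was 5.07, 4.90 and 5.08 in SSM, against 4.78, 4.85 and 4.77 in SSS. The SSM arrays lay above the SSS arrays by a small margin at a low level of signal, with a difference of 0.22 (SE 0.069), an unadjusted p of 0.0066 and an adjusted p of 0.494 in limma. Under mild stress the difference was -0.041. Oprl1, the nociceptin receptor, was 8.57, 8.46 and 8.52 in SSM, against 8.35, 8.19 and 8.35 in SSS, and Ogfr, the receptor through which enkephalin slows growth, was 9.05, 8.92 and 8.98 in SSM, against 8.85, 8.84 and 8.86 in SSS. Both were separate, by 0.22 (SE 0.13) and 0.13 (SE 0.065), and after quantile normalization without SSM replicate 1 Oprm1, Oprl1 and Ogfr stood at 0.12, 0.11 and 0.028.

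Of the peptide precursors, Penk (proenkephalin) was 11.40, 7.38 and 7.51 in SSM, against 7.02, 7.17 and 7.42 in SSS, and Pdyn (prodynorphin) 7.71, 6.64 and 6.61 in SSM, against 6.46, 6.70 and 6.56 in SSS. Oprk1, the kappa receptor for dynorphins, was 6.15, 4.30 and 4.58 in SSM, against 4.40, 4.39 and 4.46 in SSS. In all 3 the high value was that of SSM replicate 1 alone, and without it and after quantile normalization they stood at 0.15, -0.035 and -0.068. Pomc and Pnoc, which code for proopiomelanocortin and the nociceptin precursor, stood at -0.11 (SE 0.081) and 0.079 (SE 0.13), and the delta receptor gene Oprd1 at -0.06 (SE 0.11), each with overlapping groups. Of the 9 opioid peptide and receptor genes 7 had the higher mean in SSM, near the 74.0% of all genes. Their median was 0.22, beside 0.056 over all genes, and 0.028 without SSM replicate 1 and after quantile normalization.

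The 22 genes of opioid receptor signalling, G protein subunits, adenylyl cyclases, channels and regulators, had a median of 0.016, with 13 higher and 9 lower. After quantile normalization 6 were higher and 16 lower, with a median of -0.042, and without SSM replicate 1 as well 7 were higher and 15 lower, with a median of -0.036. Rgs4, which shortens G protein signals, was 10.18, 9.60 and 9.79 in SSM, against 9.58, 9.42 and 9.60 in SSS, a difference of 0.32 (SE 0.12). Cacna1b, the N-type calcium channel that mu receptors close, was 8.95, 9.25 and 9.01 in SSM, against 9.33, 9.24 and 9.25 in SSS, a difference of -0.20 (SE 0.079) with overlapping groups. Rgs9 and Adcy5, which are abundant in striatum, stood at 0.85 (SE 0.43) and 0.41 (SE 0.26) and at 0.073 and -0.10 without SSM replicate 1 and after quantile normalization. Rgs4 and Cacna1b stood at 0.10 and -0.20 in that setting.

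Among interneuron genes, the 16 measured had a median of 0.22, beside 0.056 over all genes. Of these 12 were higher and 4 lower, near the 74.0% of all genes that were higher. Without SSM replicate 1 and after quantile normalization the median was 0.085, 10 higher and 6 lower. Sst, the peptide somatostatin of dendrite-targeting interneurons, was 11.23, 11.19 and 11.26 in SSM, against 10.99, 10.83 and 10.93 in SSS. Npy, neuropeptide Y, was 9.86, 9.22 and 9.46 in SSM, against 8.81, 9.02 and 9.08 in SSS. In both the groups were apart, by 0.31 (SE 0.10) and 0.54 (SE 0.16), and Sst differed little between the SSM arrays. Slc32a1, the vesicular GABA transporter, was 9.998, 8.64 and 8.71 in SSM, against 8.5, 8.45 and 8.47 in SSS, a difference of 0.64 (SE 0.30) that came mainly from SSM replicate 1. Without that array and after quantile normalization Sst stood at 0.25, Npy at 0.29 and Slc32a1 at 0.13. Reln, described above, belongs to the same list and was the 1 member with a lower mean and an unadjusted p under 0.05, at -0.49. Under mild stress Sst had a difference of -0.19 and Npy of 0.31.

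Receptors for GABA and glutamate gave a mixed picture. Gabra4, the alpha 4 subunit, was 8.91, 8.41 and 8.64 in SSM, against 8.22, 8.21 and 8.36 in SSS, a difference of 0.39 (SE 0.11). Gabrg1 was 7.33, 6.72 and 7.04 in SSM, against 6.70, 6.28 and 6.13 in SSS, a difference of 0.66 (SE 0.28). Both were separate, and stood at 0.18 and 0.42 without SSM replicate 1 and after quantile normalization, whereas Gabrg3 and Gabrd stood at 0.26 and 0.44 with all arrays and at 0.022 and 0.046 in that setting. Grik2, a kainate receptor subunit, was 9.03, 9.00 and 9.00 in SSM, against 8.79, 8.67 and 8.74 in SSS, a difference of 0.28 (SE 0.083), and its SSM arrays were almost level. Grin2b, the NMDA receptor subunit of the immature brain, stood at -0.39 (SE 0.20) with overlapping groups. Over 20 glutamate receptor genes the median was 0.059, close to the shift of all genes, and over 13 GABA receptor and chloride transporter genes 0.071.

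Genes of synapse structure and vesicle release lay on the lower side. Of 16 genes 13 had the lower mean in SSM, with a median of -0.072 beside 0.056 over all genes, and 3 had an unadjusted p under 0.05, namely Pclo, Shank1 and Rims1, beside 0.662% of all genes with a lower mean at such a p. Rims1, which docks vesicles at the active zone, was 8.82, 9.00 and 8.99 in SSM, against 9.19, 9.08 and 9.08 in SSS, a difference of -0.18 (SE 0.078). Bsn, the partner of Piccolo, was 7.69, 8.02 and 7.57 in SSM, against 8.17, 8.03 and 7.84 in SSS, a difference of -0.25 (SE 0.12), and overlapped. After quantile normalization 15 of the 16 were lower and 8 had an unadjusted p under 0.05, beside 4.06% of all genes. Without SSM replicate 1 as well 14 were lower and 3 had such a p, beside 2.95% of all genes. Under mild stress 7 of the 16 had the higher mean, with a median of -0.021. Of 13 glutamatergic neuron genes 10 had the lower mean in SSM and 13 the lower mean in MSM. The median of the list was -0.16 in SSM minus SSS and -0.33 in MSM minus MSS. Without SSM replicate 1 and after quantile normalization the SSM minus SSS value was -0.049. The mean level of the list was 8.74, 8.71 and 7.71 in MSM, against 8.77, 8.79 and 8.68 in MSS. MSM replicate 3 thus lay far below the other mild-stress arrays.

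Genes of mitochondrial energy supply lay on the higher side. Of 20 genes of oxidative phosphorylation 20 had the higher mean in SSM, with a median of 0.12, and 6 had an unadjusted p under 0.05, where 74.0% of all genes were higher and 8.71% were higher at such a p. Ndufa1, of complex I, was 9.32, 9.26 and 9.49 in SSM, against 9.16, 9.05 and 9.16 in SSS, a difference of 0.23 (SE 0.066). Cox5a, of complex IV, was 9.57, 9.52 and 9.57 in SSM, against 9.42, 9.31 and 9.42 in SSS, a difference of 0.17 (SE 0.057). Both were separate on every array. After quantile normalization the 20 were still higher, with a median of 0.079 and 1 unadjusted p under 0.05 (3.27% of all genes), and without SSM replicate 1 as well 19 were higher, with a median of 0.051. Under mild stress 17 of the 20 had the higher mean in MSM, with a median of 0.046.

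**Figure D4:**
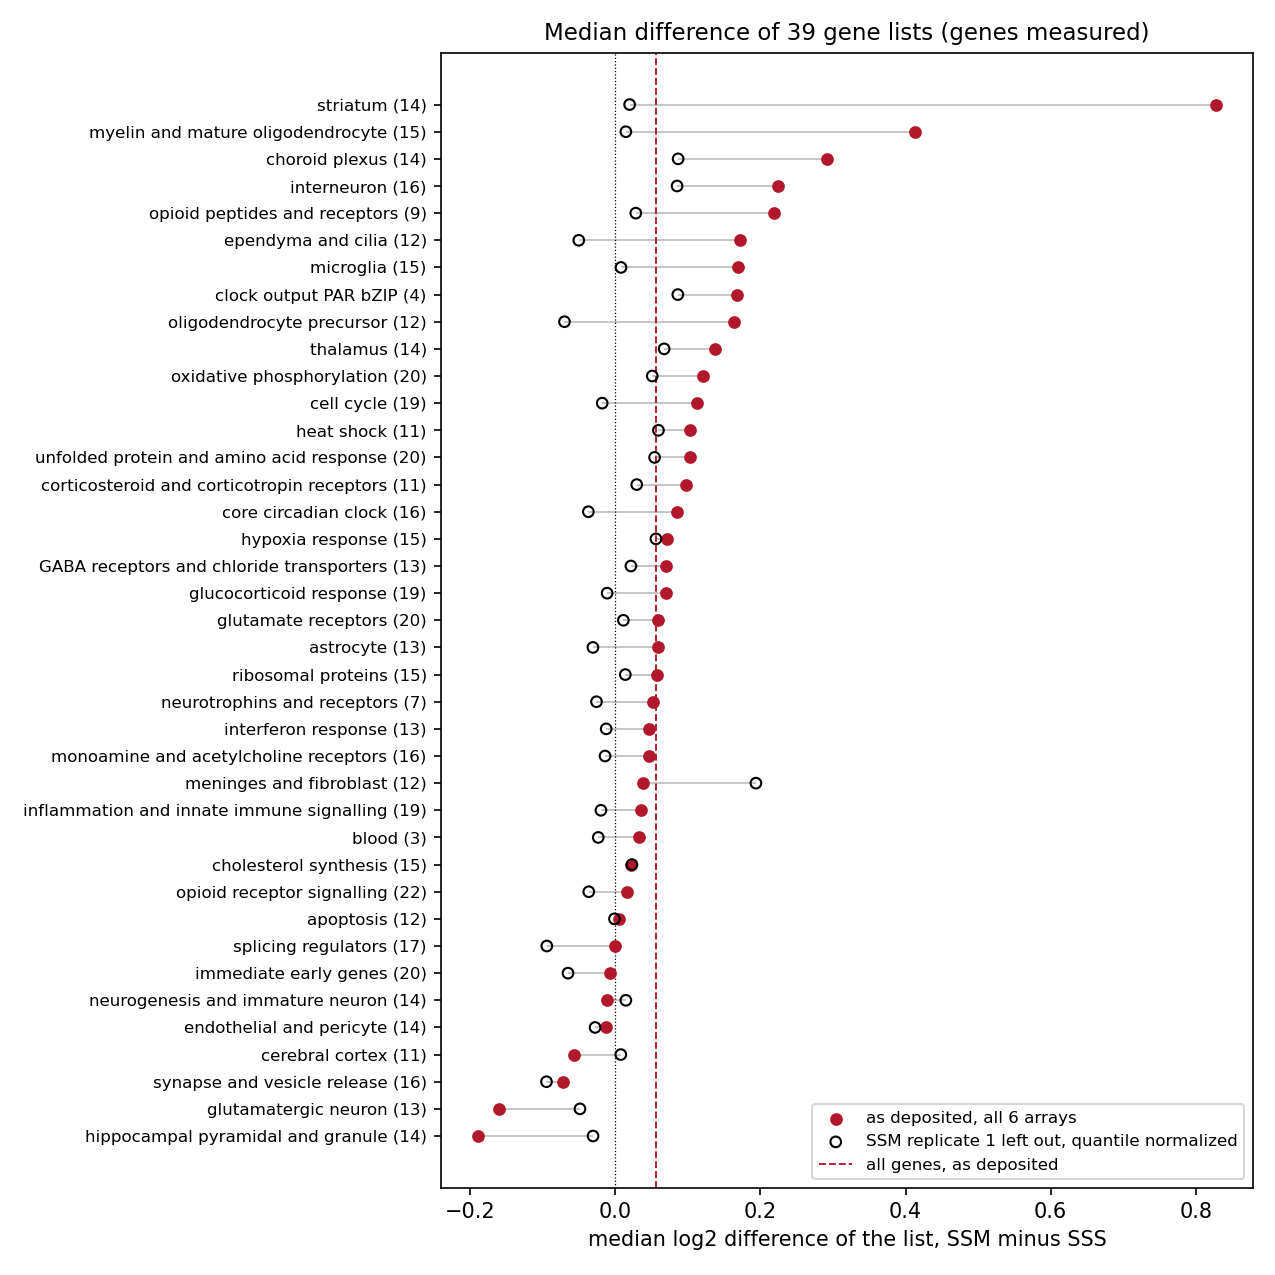
Median log2 difference, SSM minus SSS (horizontal axis), of the 39 gene lists with the number of genes measured in brackets (vertical axis). Red points use all 6 arrays as deposited, open circles leave out SSM replicate 1 after quantile normalization, and the dashed line is the median of all genes (0.056). The striatal and myelin lists move from 0.83 and 0.41 to near 0, while the synapse list stays below 0 and oxidative phosphorylation above 0.

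Whole families were then taken by symbol, a choice made after the data were seen. Of 77 mitochondrial ribosomal protein genes 72 had the higher mean in SSM, with a median of 0.14, and 31 had an unadjusted p under 0.05, beside 8.71% of all genes. Mrps31 was 7.22, 7.19 and 7.24 in SSM, against 6.93, 7.00 and 6.98 in SSS, a difference of 0.25 (SE 0.062). Mrpl50 was 7.47, 7.49 and 7.49 in SSM, against 7.37, 7.18 and 7.21 in SSS, a difference of 0.23 (SE 0.066). In both the 3 SSM arrays lay close together and above SSS. Of 77 genes of the respiratory chain and ATP synthase 75 were higher (median 0.12) and 25 had such a p, with Ndufs6 at 0.25 (SE 0.071) and Atp5md at 0.30 (SE 0.088). Of 24 mitochondrial import genes 23 were higher (median 0.12) and 9 had such a p, with Timm8b, a chaperone of the intermembrane space, at 0.26 (SE 0.062). The 50 proteasome genes held 46 that were higher (median 0.10) and 8 with such a p, among them the catalytic subunit gene Psmb5 at 0.21 (SE 0.079). The 54 cytosolic ribosomal genes held 50 that were higher, but with a median of 0.069 and 4 with such a p they lay near the shift of all genes. All 10 Commd genes were higher, 3 with such a p, but 1 of these is Commd6, which was known when the family was taken.

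These counts shrank with scaling and kept their sign in the mitochondrial families. After quantile normalization the mitochondrial ribosome stood at 0.064, with 63 of 77 higher and 15 with an unadjusted p under 0.05, beside 3.27% of all genes. The respiratory chain stood at 0.072, with 68 of 77 higher and 7 with such a p. Without SSM replicate 3 these medians were 0.076 and 0.089, and within SS 8, the single pair of arrays that share an SS number, 0.074 and 0.11. Under mild stress 51 of the 77 mitochondrial ribosome genes were higher in MSM, with a median of 0.03. The 68 kinesin, myosin and dynein genes had a median of 0.0047 as deposited, which turned to -0.056 after quantile normalization and -0.059 after median centring. As deposited, 35 of them had the higher mean with 8 at an unadjusted p under 0.05, and 5 had the lower mean at such a p, beside 8.71% and 0.662% of all genes. Those 5 were Dync1h1, Myo5a, Myo9a, Myo19 and Kif21b. All but Kif21b are named above for their p-value or distance between groups and were known when the family was taken. The counts of this family therefore partly repeat those genes. After quantile normalization 1 of the 68 was higher and 15 were lower at an unadjusted p under 0.05, beside 3.27% and 4.06% of all genes.

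**Figure D5:**
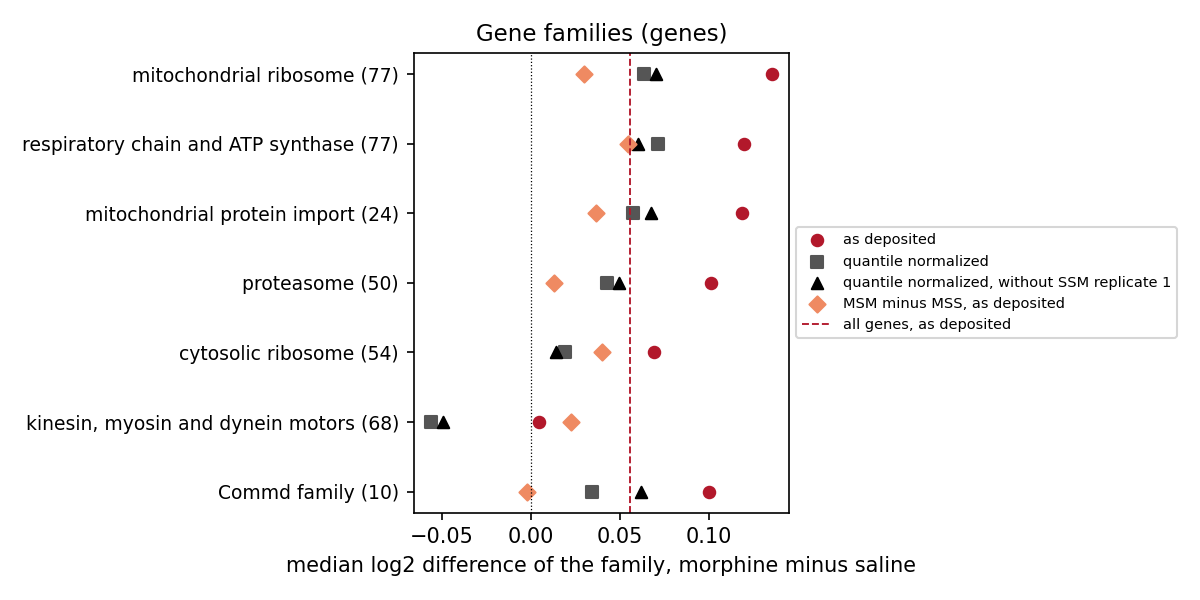
Median log2 difference, morphine minus saline (horizontal axis), of 7 gene families with their number of genes in brackets (vertical axis). Circles are SSM minus SSS as deposited, squares after quantile normalization, triangles after quantile normalization without SSM replicate 1, and diamonds MSM minus MSS. The mitochondrial families lie right of 0 in all 4, and the motors lie left of 0 in both quantile-normalized settings.

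Genes of the stress hormone response are given next. The 19 glucocorticoid response genes had a median of 0.07 and 1 unadjusted p under 0.05, that of the sulfotransferase Sult1a1 at 0.20 (SE 0.084). The metallothionein Mt1 was 10.30, 10.16 and 10.26 in SSM, against 10.06, 10.07 and 10.06 in SSS, a difference of 0.18 (SE 0.084) with separate groups. Nr3c1, the glucocorticoid receptor, stood at 0.10 (SE 0.059) with overlap, and Crh, corticotropin-releasing hormone, at 0.10 (SE 0.10). Of 20 immediate early genes, which neurons switch on with activity, 9 had the higher and 11 the lower mean, and 0 had an unadjusted p under 0.05. After quantile normalization 4 were higher and 16 lower, with a median of -0.064, and without SSM replicate 1 as well 6 were higher and 14 lower. Nr4a3 was 8.19, 8.87 and 8.89 in SSM, against 8.93, 9.02 and 8.91 in SSS and Dusp6, a phosphatase that ends ERK signals, 8.71, 8.77 and 8.82 in SSM, against 8.84, 8.90 and 9.08 in SSS. Both lay below SSS on every SSM array, as did 1.15% of all genes. The differences were -0.31 (SE 0.27) and -0.18 (SE 0.13), and -0.53 and -0.27 in MSM minus MSS. The Nr4a3 difference in SSM minus SSS came mainly from SSM replicate 1, at 8.19. The other SSM arrays, at 8.87 and 8.89, lay close to the lowest SSS array, at 8.91. Under mild stress 17 of the 20 had the lower mean in MSM, with a median of -0.16. The mean level of the list was 6.93, 6.98 and 6.54 in MSM, against 7.06, 6.99 and 6.93 in MSS, the lowest array being MSM replicate 3.

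Genes of protein folding were slightly higher as deposited. Among genes induced by unfolded proteins or amino acid shortage, 17 of 20 had the higher mean, with a median of 0.10 and 6 at an unadjusted p under 0.05, beside 74.0% and 8.71% of all genes. Psat1, of serine synthesis, was 9.37, 9.09 and 9.26 in SSM, against 8.98, 9.05 and 9.03 in SSS, a difference of 0.21 (SE 0.073). Dnajb9, Herpud1 and Asns stood at 0.26, 0.21 and 0.14. After quantile normalization the median was 0.039 and 0 had such a p in limma. Heat shock genes had a median of 0.10 over 11, with the cochaperone Dnajb1 at 0.16 (SE 0.072). Hypoxia response genes had a median of 0.072 over 15, with Car9 at 0.27 (SE 0.088) and the glucose transporter Slc2a1 at 0.19 (SE 0.09).

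Microglial genes were highest on SSM replicate 1. All 15 microglial genes had the higher mean in SSM, beside 74.0% of all genes, with a median of 0.17. On SSM replicate 1 10 of them were highest of all 15 arrays, beside 1786 of all 19938 genes. Tyrobp, a microglial adaptor, was 6.30, 6.15 and 6.22 in SSM, against 6.11, 6.01 and 5.94 in SSS, and the complement gene C1qb 7.59, 7.24 and 7.24 in SSM, against 7.03, 7.07 and 7.14 in SSS. Both were separate, by 0.20 (SE 0.066) and 0.28 (SE 0.10), and without SSM replicate 1 and after quantile normalization the list stood at 0.008, with 8 of 15 higher. The mean level of the list was 7.00, 6.68 and 6.81 in SSM, against 6.67, 6.65 and 6.72 in SSS. Oligodendrocyte precursor and ependymal genes had medians of 0.16 and 0.17, which became -0.07 and -0.05 in that setting. Astrocyte genes had a median of 0.058, near that of all genes, and 2 of 13 were highest of all 15 arrays on SSM replicate 1. Icam1, an adhesion molecule of inflamed endothelium, was 5.96, 5.88 and 6.21 in SSM, against 6.30, 6.25 and 6.34 in SSS. It lay below SSS on every SSM array, by -0.28 (SE 0.10), and stood at -0.33 without SSM replicate 1 and after quantile normalization, while the 19 inflammation genes as a list had a median of 0.035. None of the 19 was highest of all 15 arrays on SSM replicate 1. On SSM replicate 3 13 were highest of the 6 arrays, as were 12470 of all 19938 genes.

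The remaining lists gave medians near that of all genes or fewer than 3 members at an unadjusted p under 0.05. Cell cycle genes stood at 0.11 (19 genes; Pcna at 0.16 (SE 0.06)) and at -0.018 without SSM replicate 1 and after quantile normalization. Neurogenesis genes stood at -0.011 over 14, neurotrophin genes at 0.052 over 7, with the neurotrophin 3 receptor gene Ntrk3 at -0.13 (SE 0.083) and separate groups. Apoptosis genes stood at 0.0056 over 12, with the caspase inhibitor Xiap at 0.23 (SE 0.077). Interferon, cholesterol synthesis, splicing, and endothelial and pericyte genes stood at 0.047, 0.022, -0.00041 and -0.012. Corticosteroid and corticotropin receptor genes, ribosomal proteins and monoamine and acetylcholine receptors stood at 0.10, 0.057 and 0.046. Meninges markers stood at 0.039, and at 0.19 without SSM replicate 1 and after quantile normalization, with 12 of 12 higher, the mean level of the list being 6.59 on that array. Thalamus, cortex and blood markers stood at 0.14, -0.057 and 0.033, and those of pyramidal and granule cells at -0.19, or -0.031 without SSM replicate 1 and after quantile normalization. The choroid plexus list stood at 0.29, with SSS replicate 2 on the saline side, and at -0.37 without SSM replicate 1 and SSS replicate 2 and after quantile normalization. The part that these markers have in the other results was not tested.

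MicroRNA genes, of which 300 were measured, held 3 with separate groups among the 6 with the smallest p-values in their direction. Over all genes SSM lay wholly above SSS for 11.7% and wholly below for 1.15%. The 6 were chosen by p, which favours separate groups, so the count is a description of them only. The array reads the precursor or host transcript and not the mature RNA alone. Mature sequences from RefSeq (GRCm38.p6) are shown, with the seed at bases 2 to 8, the stretch that pairs with targets, in capitals, to let the 3 be compared. Mir331 lies on chromosome 10 (minus strand), Mir697 on chromosome 4 (plus strand) and Mir138-2 on chromosome 8 (plus strand).
miR-331-3p: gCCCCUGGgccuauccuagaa
miR-697: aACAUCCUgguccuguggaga
miR-138-5p: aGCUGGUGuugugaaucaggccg
The 3 seeds differ from each other. Mir331 was 5.22, 5.22 and 5.43 in SSM, against 5.10, 5.01 and 5.12 in SSS, a difference of 0.22 (SE 0.072). Mir697 was 5.04, 4.86 and 5.15 in SSM, against 5.28, 5.30 and 5.203 in SSS, a difference of -0.24 (SE 0.069). Mir138-2, of a microRNA family known to limit dendritic spine growth, was 5.16, 5.11 and 5.33 in SSM, against 5.40, 5.38 and 5.48 in SSS, a difference of -0.22 (SE 0.076). SSM lay above SSS in Mir331 and below it in the other two, by small margins at low levels. Mir361 and Mir532 stood at 0.23 (SE 0.076) and 0.20 (SE 0.068) and Mir540 at -0.30 (SE 0.14), each with overlapping or touching groups. None passed in limma, with adjusted p-values of 0.494 for 5 of them and 0.528 for Mir540.

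Mild stress gave the same contrast of drug and vehicle on other arrays. In MSM against MSS 0 of 19938 genes passed in limma (smallest adjusted p = 1.00). At an unadjusted p under 0.05 there were 513 genes (2.57%), with 316 (1.58%) higher and 197 (0.988%) lower in MSM. The mean was higher in MSM for 50.1% of all genes. Without MSM replicate 1 a single gene passed, Rorb (adjusted p = 0.00711 in limma), which was 7.62 and 7.71 on the other MSM arrays, against 6.63 to 6.74 in MSS, and was named after its value was seen. Of the 12 genes with the smallest p-values and a higher mean in SSM, 10 also had the higher mean in MSM, the differences of the 12 running between -0.066 and 0.28, and for 1, Dbp, MSM lay wholly above MSS. Of the 12 with the lower mean 7 had the lower mean in MSM. Pclo was 8.69, 8.73 and 8.62 in MSM, against 8.80, 8.67 and 8.45 in MSS, and Dync1h1 10.30, 10.24 and 10.20 in MSM, against 10.29, 10.23 and 10.17 in MSS. The MSM and MSS arrays of both genes overlapped.

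The interaction, the SSM minus SSS difference less the MSM minus MSS difference, was not past the threshold for any gene. It gave 0 of 19938 genes in limma (smallest adjusted p = 0.959), with 727 (3.65%) at an unadjusted p under 0.05, 650 (3.26%) higher and 77 (0.386%) lower. After quantile normalization 841 genes had such a p, 436 of them higher. Values of the genes with the smallest interaction p follow. Fcrls, an Fc receptor-like gene of microglia, was 7.73, 7.67 and 7.74 in SSM, against 7.46, 7.33 and 7.54 in SSS. Under mild stress it was 7.32, 7.33 and 7.36 in MSM, against 7.67, 7.59 and 7.41 in MSS. Morphine arrays thus lay above saline arrays under severe stress and below them under mild stress, with an interaction of 0.49 (SE 0.10). Cd48, a surface protein of immune cells, followed the same pattern, with 4.22, 4.28 and 4.42 in SSM, against 3.95, 4.00 and 4.09 in SSS, and with 3.99, 3.97 and 3.96 in MSM, against 4.23, 4.12 and 4.17 in MSS. Its interaction was 0.49. Pknox1, a homeodomain factor, stood at 0.11 in SSM minus SSS and -0.32 in MSM minus MSS, and Nars2, the mitochondrial asparaginyl-tRNA synthetase, at 0.25 and -0.19.

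In the other direction, Lifr, the receptor of leukemia inhibitory factor, was 7.24, 7.51 and 7.48 in SSM, against 7.63, 7.55 and 7.59 in SSS. Under mild stress it was 7.62, 7.60 and 7.73 in MSM, against 7.55, 7.42 and 7.49 in MSS. SSM lay below SSS and MSM above MSS, with an interaction of -0.35 (SE 0.10). Myo19, Itpripl1 and Acnat1 had interactions of -0.39, -0.43 and -0.32. Among the 12 genes with a higher mean in SSM and the smallest p-values, 11 had an unadjusted interaction p under 0.05, and among the 12 with a lower mean 6, but the interaction contains the SSM and SSS arrays by which those genes were chosen. All of them had an adjusted interaction p of 0.959 in limma.

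For SSM against SSS, genes passed in a single setting of those tried, the comparison within SS 8. With the SS number as a fixed block the difference is that of SSM replicate 1 less SSS replicate 3, tested against the pooled spread of the other arrays, so it compares those 2 arrays. It gave 40 genes in limma, 38 higher (0.191% of all genes) and 2 lower (0.01%). All 38 higher genes were highest of the 15 arrays on SSM replicate 1, the array with the striatal genes. They included Drd1 and Oprk1, as well as Rxrg, the retinoid X receptor gamma, at 3.27 and the sodium channel subunit gene Scn4b at 3.39. Over the 38 the median difference was 1.16 within SS 8 and 0.12 between SSM replicates 2 and 3 and SSS. Dbp passed narrowly, at 0.70 with a limma adjusted p just under the threshold, and the 2 lower genes were Unc5c, a netrin receptor, at -0.64 and Trim67 at -0.81.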

How the data were processed

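RNA of the right hippocampus was measured on 15 arrays, 3 in each of 5 groups. The deposited values are log2 intensities for 35557 probe sets, summarised by the authors with RMA, per the submitters' processing notes. The program that ran RMA was not given in the sources used here. Symbols came from the platform annotation: 21789 probe sets carry a single symbol, 1621 several and 12147 none. Each gene was read from its probe set with the highest mean over the 15 arrays, which gave 19938 genes. A mean per group was fitted to all 15 arrays in limma 3.58.1 (R 4.3.3), with eBayes and Benjamini-Hochberg adjustment over 19938 genes at a threshold of 0.05. The contrasts were SSM minus SSS, MSM minus MSS and their difference. The fit was tested on simulated data with known differences. The precision is limited by the 3 arrays per group.

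Named genes were the 12 in each direction with the smallest p, the 8 in each direction whose groups lay farthest apart under 3 scalings at a mean level of at least 6, up to 4 members of each list, all members of the opioid and clock lists, 3 microRNA genes in each direction, and 4 genes in each direction for the interaction. Predicted genes, clones, olfactory and vomeronasal receptors and small RNAs of similar kind were passed over. Of 620 members of 39 lists 555 were measured. The members and lists were chosen with earlier results of these data known. The families taken by symbol, the bins by span and the alternatives for mild stress were added after the data were seen, as were genes named as markers of single arrays. Sequences and spans came from RefSeq tables (GRCm38.p6), which matched 19856 genes by gene ID. Tables and figures were made with Python 3.11.15, pandas 2.3.3, numpy 2.4.6 and matplotlib 3.10.9. Replicates were numbered in the order of the samples.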

Additional observations from a re-analysis of the deposited data

How the results depend on the processing

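In SSM against SSS no gene passed under quantile normalization, median centring, a filter on dim genes, the mean over probe sets, eBayes with trend, a random block for the SS number, the 6 arrays alone, all probe sets, or with any single array left out. Within SS 8 there were 40. Genes with an unadjusted p under 0.05 and a higher mean numbered 651 after quantile normalization, 521 after median centring, 812 within SS 8, 974 in the 6 arrays alone, 552 without SSM replicate 1 and with quantile normalization, and 383 without SSM replicate 1 and SSS replicate 2 and with quantile normalization. Leaving out 1 array at a time gave 823 (without SSS replicate 2) to 3014 (without SSM replicate 2), with 861 without SSM replicate 3. Those with a lower mean numbered, in the same order of settings, 810, 773, 606, 84, 588 and 421, and 345 with all probe sets. Leaving out 1 array gave 46 (without SSM replicate 1) to 570 (without SSM replicate 3), with 80 without SSS replicate 2. In MSM against MSS leaving out 1 array gave 0 to 1 genes, the 1 being Rorb without MSM replicate 1. The interaction gave 0 in every alternative run. The cause of these differences was not tested. The 40 differences and interactions named for their p-value or their distance between groups kept their direction in all 668 values under alternatives, and 1, Dbp within SS 8, came past the threshold. These genes were chosen for that contrast. Of 168 named list members 109 kept their sign in every alternative. The sign turned for 6 after quantile normalization, 13 without SSM replicate 1, 25 without it and with quantile normalization (among them Pdyn, Oprk1, Tef and Adcy5), and 36 with SSS replicate 2 left out too. Of 440 list medians 73 moved by more than the spread between arrays, 12 of them without SSM replicate 1 and with quantile normalization. No paired analysis was possible because replicates were numbered only in the order of the samples and the labels tie no SSM array to an SSS array by litter.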
